A study of Mus musculus with 29 samples.

Results

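NF-kappaB is a family of transcription factors that work as pairs of subunits and that are held in the cytoplasm by inhibitor proteins until a signal removes them. Messenger RNA of 9 genes of this family was followed in mouse skeletal muscle across age. They were the 4 subunit genes Nfkb1, Nfkb2, Rela and Relb, the inhibitor genes Nfkbia, Nfkbib and Nfkbie, the nuclear cofactor gene Bcl3, and Tnfaip3, which encodes the ubiquitin-editing enzyme A20. The genes were taken by symbol from a count table of 22537 gene symbols, and all 9 were in it and passed the filter on low counts in every comparison.

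In the canonical pathway, kinases mark the inhibitors for destruction and free pairs of Rela with the processed product of Nfkb1. In the alternative pathway, the product of Nfkb2 is itself processed and acts with Relb. Several of the genes that NF-kappaB switches on encode its own inhibitors, so the pathway limits itself, and in muscle it is known for its part in inflammation, disuse and wasting.

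The entire tibialis anterior (TA), a fast muscle of the lower leg, gave poly-A RNA for sequencing from male C57BL/6 mice aged 6 months (6m, n = 7), 24 months (24m, n = 7) and 28 months or more (28m, n = 8). The mice carried no transgene or treatment by the labels. The first run held 14 libraries, those at 6m and at 24m. The second run held 15, from the 28m mice and of the same 7 mice at 6m prepared anew. Each old group was therefore set against the 6m libraries sequenced beside it, 28m within the second run and 24m within the first. The series text gives the number of mice at 24m and at 28m the other way round than the sample labels, and the labels were followed.

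Total counts per library were between 17633475 and 33499162. Levels are given as CPM, the counts of a gene per 1000000 counts of the library after scaling for library composition (TMM). Summed fast fibre markers, 10 genes of the contractile machinery with Myh4 the highest, were between 146480 and 244746 CPM in the libraries, so genes of fast muscle led in all of them. Libraries differed in how levels ran with transcript length over all genes. The change of level per doubling of length, on the log2 scale against the mean of all libraries, was between 0.124 and 0.174 in second-run libraries at 6m and between -0.43 and 0.080 in the 28m libraries, without overlap. In the first run it was -0.24 in 6m mouse 4, -0.53 in 24m mouse 4, and between -0.010 and 0.185 in the other libraries. Across genes, which are not independent replicates, the 28m change had a Spearman rho of -0.64 with transcript length and the 24m change a rho of -0.31. A further fit had the trend of each library with length and GC content removed, and its values are given for the members at 28m and, among the listed genes called with or without it, for those whose change moved by over 1.5 times or whose call was altered. Age and this trend cannot be told apart at 28m, and its source was not tested.

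The genes lie at separate places in the mouse genome (GRCm38, the assembly of mm10, by GENCODE). Nfkb1 is at chr3:135584655-135691547 on the minus strand, Nfkb2 at chr19:46304320-46312385 on the plus strand, and Rela at chr19:5637483-5648130 on the plus strand. Relb (chr7:19606217-19629438), Bcl3 (chr7:19808462-19822770) and Nfkbib (chr7:28758251-28767512) are all on the minus strand of the same chromosome. Nfkbia is at chr12:55489410-55492647 on the minus strand, Nfkbie at chr17:45555703-45563169 on the plus strand, and Tnfaip3 at chr10:19000910-19015657 on the minus strand. Counting is of whole genes, so the values are of exons and untranslated regions together. Exons of Nfkb2 overlap Psd on the opposite strand, those of Nfkbib overlap Sirt2 and Ccer2, and those of Bcl3 overlap an antisense RNA. Whether the counting used strand is not given in the sources used here, so values of these 3 genes are uncertain to that extent.

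Because NF-kappaB acts on its own genes, the 250 bases before each start site were read for the kappaB consensus, a motif that opens with a run of G and closes with a run of C, on both strands. RefSeq start sites (GRCm38.p6) were found for 7 of the 9 genes, 10 start sites in all. Nfkb1 and Relb had no entry in the promoter sequences used, so their promoters were not read. Matches were at 4 start sites in 3 genes, Nfkb2, Nfkbia and Tnfaip3, while 5.0% of 32817 promoter windows of mouse genes held a match. A match describes the letters only. The windows around the 5 matches are shown 5′ to 3′ on the strand of the gene, with the matching letters in capitals.
Nfkbia, chr12:55492657-55492686 (minus strand): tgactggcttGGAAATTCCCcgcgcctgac
Nfkb2, chr19:46304688-46304717 (plus strand): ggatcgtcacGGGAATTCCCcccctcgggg
Nfkb2, chr19:46304707-46304736 (plus strand): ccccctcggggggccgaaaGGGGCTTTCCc
Nfkb2, chr19:46305695-46305724 (plus strand): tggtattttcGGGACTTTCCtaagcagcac
Tnfaip3, chr10:19015411-19015440 (minus strand): gtgactggaatttccatcGGAAATCCCCct
The Nfkbia match lay 29 to 20 bases before the start. The first pair of Nfkb2 windows belong to 1 start site, with matches 39 to 30 and 11 to 2 bases before it, and 0.56% of all promoter windows held 2 or more matches. Of the 3 genes with a match, Nfkb2 and Nfkbia were higher at 28m and Tnfaip3 was lower, as described next.

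Levels between genes were compared per kilobase of transcript. At 6m (second run) the inhibitors Nfkbia and Nfkbib had the highest levels, with 14.7 ± 0.812 and 14.5 ± 1.52 CPM per kb (SD, n = 7), and these neighbours did not differ beyond their spread. Rela followed with 8.44 ± 0.272 and Nfkb1 with 8.18 ± 0.293 CPM per kb, again within their spread of each other. Relb and Nfkb2, the subunits of the alternative pathway, were alike at 4.56 ± 0.930 and 4.54 ± 0.858 CPM per kb. Tnfaip3 had 1.93 ± 0.292, Bcl3 0.671 ± 0.221 and Nfkbie 0.326 ± 0.0852 CPM per kb.

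Nfkbia at 28m stood at 29.1 ± 8.43 and Nfkbib at 20.7 ± 3.28 CPM per kb (SD, n = 8), followed by Rela at 9.24 ± 0.949. Nfkb2 had 7.81 ± 2.09, Relb 6.95 ± 1.04 and Nfkb1 6.10 ± 0.546 CPM per kb. Transcripts of these genes differ in length, the libraries at 28m and 6m differ in their length trend, and the levels per kb are not corrected for it, so a change of order between the ages is not read from them. The means of neighbours from Rela to Nfkb1 in this order lay within the sum of their SDs. Nfkbie and Bcl3 were the lowest at both ages, with 12 to 89 and 13 to 97 counts per library over all 29 libraries, so their values carry more counting error than those of the other members.

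**Figure D1:**
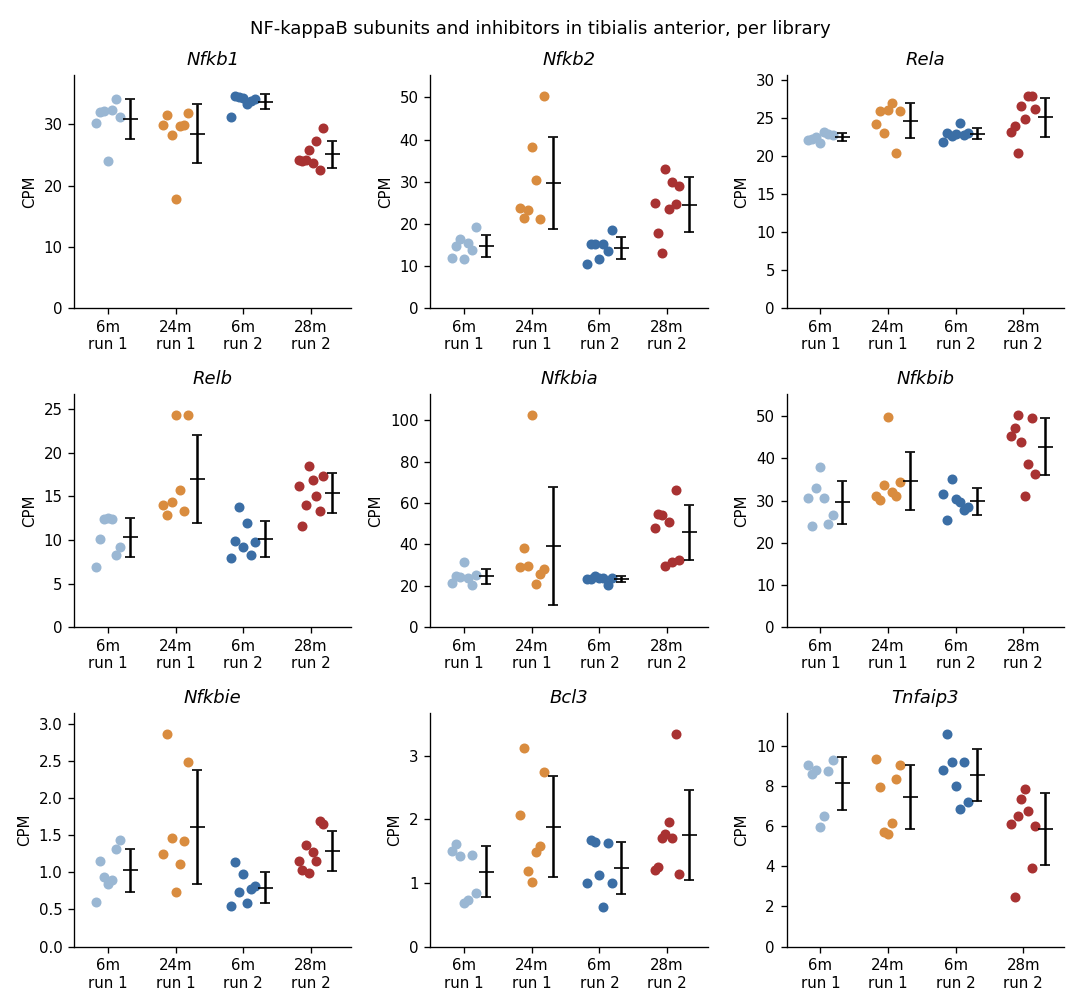
CPM (vertical axes, from 0) of each gene in every library, by age and run (horizontal axes), with the mean and SD of each group in black. All 28m points of Nfkb1 lie below, and all those of Nfkbia above, the 6m points of the second run, and 24m mouse 4 stands at 102 CPM of Nfkbia and 17.8 CPM of Nfkb1.

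Between 6m and 28m, 5 of the 9 genes rose and 2 fell. Nfkb2, Relb, Nfkbia, Nfkbib and Nfkbie were higher, Nfkb1 and Tnfaip3 were lower, and Rela and Bcl3 did not pass the test. No member changed by a log2 fold change of 1 or more. Of the 12994 genes tested, 24.3% were called higher and 22.9% lower, so changes in both directions were common among all genes. The median log2 fold change over the 9 members was 0.49 and that over all genes tested 0.0091.

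Nfkb1, whose product p105 is processed to the DNA-binding subunit p50 and otherwise acts as an inhibitor, fell. Its lowest, median and highest values were 31.2, 34.1 and 34.6 CPM in the 7 mice at 6m and 22.5, 24.1 and 29.4 CPM in the 8 mice at 28m. All 8 of the 28m mice lay below all second-run libraries at 6m, which held for 6.18% of the genes tested. The first library of 6m mouse 4 had 23.9 CPM, within the 28m range. The log2 fold change was -0.45 (SE 0.07, edgeR's quasi-likelihood test, adjusted p = 0.000485). With the length trend removed it was -0.20 (adjusted p = 0.0182 by the same test).

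Rela encodes p65, the subunit with the strong activation domain of the canonical pair. It had 21.8, 22.9 and 24.3 CPM (lowest, median, highest) at 6m and 20.4, 25.6 and 27.9 CPM at 28m. The groups overlapped, with 5 of the 8 mice at 28m above all those at 6m and 1 below. Its log2 fold change was 0.10 (SE 0.08, edgeR's quasi-likelihood test, adjusted p = 0.266, 95% interval -0.045 to 0.25). The spread between mice was 0.737 CPM at 6m and 2.58 CPM at 28m (SD). With the length trend removed the log2 fold change was 0.15 and passed (adjusted p = 0.0454, edgeR).

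Both subunits of the alternative pathway rose. Nfkb2, whose product p100 is an inhibitor of Relb until it is processed to p52, had 10.4, 15.2 and 18.5 CPM at 6m and 13.1, 24.8 and 33.1 CPM at 28m (lowest, median, highest). The 28m mice overlapped with the 6m mice through mice 2 and 3, at 17.8 and 13.1 CPM, and the other 6 lay above. Its log2 fold change was 0.76 (SE 0.18, edgeR's quasi-likelihood test, adjusted p = 0.00353). Psd, the gene that overlaps it, was also called higher (log2 fold change 0.62, adjusted p = 0.0294, edgeR). Relb, the partner of p52, went from 7.96, 9.74 and 13.7 CPM to 11.6, 15.6 and 18.5 CPM. Of the 28m mice, 6 exceeded all at 6m, and the log2 fold change was 0.58 (SE 0.13, adjusted p = 0.00278, edgeR). These rises were 0.86 and 0.53 with the length trend removed, and both passed (adjusted p = 0.000871 and 0.0101, edgeR).

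All 3 classical inhibitor genes rose. Nfkbia encodes I-kappaB-alpha, which takes NF-kappaB back out of the nucleus and is itself a rapid target of it. It had 20.6, 23.6 and 24.8 CPM at 6m (lowest, median, highest) and 29.5, 49.4 and 66.3 CPM at 28m. All 8 of the 28m mice lay above all second-run libraries at 6m, as held for 6.21% of the genes tested. The first library of 6m mouse 4 had 31.5 CPM, above 28m mouse 4. Within the 28m group, mice 4, 6 and 8 had 29.5, 31.6 and 32.6 CPM, and the other 5 mice between 48.1 and 66.3 CPM. The log2 fold change was 0.95 (SE 0.15, edgeR's quasi-likelihood test, adjusted p = 0.000538), the largest among the members. With the length trend removed it was 0.63 (adjusted p = 0.000832, edgeR), below Nfkb2 at 0.86 and Nfkbie at 0.64.

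Nfkbib, the gene of I-kappaB-beta, had 25.3, 29.7 and 35.2 CPM at 6m and 31.2, 44.5 and 50.2 CPM at 28m (lowest, median, highest). In 7 of the 8 mice at 28m it exceeded all at 6m, and the log2 fold change was 0.49 (SE 0.10, adjusted p = 0.00196, edgeR) and 0.38 with the length trend removed (adjusted p = 0.0140, edgeR). Nfkbie, which encodes I-kappaB-epsilon, was scarce, with 0.543, 0.772 and 1.13 CPM at 6m and 0.987, 1.21 and 1.69 CPM at 28m. Here 6 of the 8 mice at 28m lay above all at 6m, and the log2 fold change was 0.67 (SE 0.19, edgeR's quasi-likelihood test, adjusted p = 0.0101). Against the first libraries of the 6m mice, the Nfkbie change was 0.30 and did not pass (adjusted p = 0.245, edgeR). With the mouse as a block over all libraries it was 0.71 and missed the threshold (adjusted p = 0.0513, limma-voom).

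Bcl3, an I-kappaB-like protein that acts in the nucleus with p50 or p52, had 0.626, 1.13 and 1.68 CPM at 6m and 1.14, 1.71 and 3.34 CPM at 28m. The groups overlapped in 3 of the 8 mice at 28m. Its log2 fold change of 0.48 (SE 0.26) did not pass (adjusted p = 0.133, edgeR's quasi-likelihood test, 95% interval -0.026 to 0.98). It was 0.32 with the length trend removed and 0.28 without 28m mouse 7, and did not pass in either. The highest value was that of 28m mouse 7, which also had the highest Nfkbia and the highest Nfkbie.

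Tnfaip3, the feedback enzyme that edits ubiquitin chains on the adaptors of the pathway, fell. It had 6.84, 8.82 and 10.6 CPM at 6m and 2.47, 6.32 and 7.84 CPM at 28m (lowest, median, highest). Of the 28m mice, 6 lay below all at 6m, with mouse 2 the lowest, and the log2 fold change was -0.57 (SE 0.19, edgeR's quasi-likelihood test, adjusted p = 0.0254). The call was lost with the length trend removed (-0.28, adjusted p = 0.247), against the first libraries of the 6m mice (-0.49, adjusted p = 0.0785) and without 6m mouse 2 of the second run (-0.50, adjusted p = 0.0528), all by edgeR.

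With the length trend removed, 6 members rose and 1 fell at 28m, beside 17.4% of all genes called higher and 12.5% lower in that fit. Nfkb2, Relb and the 3 inhibitors were among the 6, and Rela joined them. Nfkb1 has a reference transcript of 4117 bases and Tnfaip3 of 4422 bases, the longest of the 9, and Nfkbia of 1578 bases is the shortest. Over the 22 mice, each taken as its difference from the group mean, the level of Nfkb1 followed the length trend of the library with Pearson's r of 0.89 (rho 0.86, r without the 2 most distant mice 0.77). That of Nfkbia ran against it with r of -0.91 (rho -0.84, r without those mice -0.81). Nfkbib had r of -0.62, and -0.31 without those mice. Nfkb2 and Rela had r of 0.22 and 0.20, which became 0.62 and 0.65 without those mice. Relb, Nfkbie, Bcl3 and Tnfaip3 had r between -0.14 and 0.35 with all mice and between 0.022 and 0.17 without the 2. These are descriptions over mice that share libraries with the trend.

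**Figure D2:**
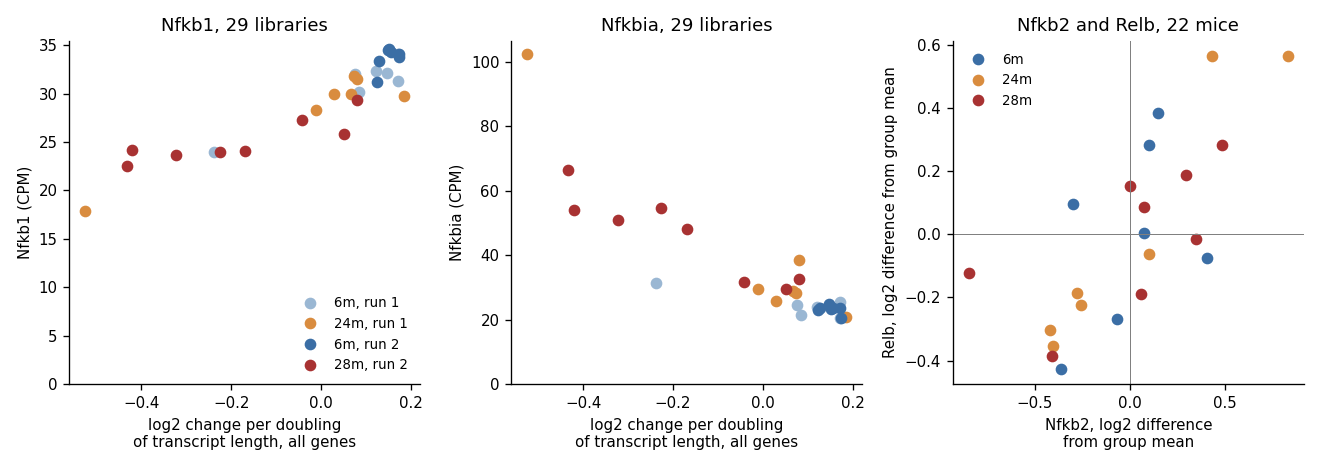
Left and middle: CPM of Nfkb1 and Nfkbia (vertical axes, from 0) in the 29 libraries against the change of level per doubling of transcript length over all genes (horizontal axes, log2). Right: Relb against Nfkb2 in the 22 mice as log2 differences from the group mean. Nfkb1 is low and Nfkbia high in libraries with a strongly negative trend, down to 24m mouse 4 at -0.53, and Nfkb2 and Relb lie along a rising diagonal.

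In bulk tissue, fewer cells of a type and less RNA per cell cannot be told apart, and several cell types use these genes. The marker calls and sums that follow are not corrected for the length trend. Endothelial markers fell at 28m, with 6 of 8 genes called lower and 1, Cldn5, called higher, beside 22.9% and 24.3% of all genes. Their summed level was 429, 443 and 481 CPM at 6m (lowest, median, highest) and 251, 313 and 369 CPM at 28m, without overlap. Of 6 fibroblast markers 4 were lower and none higher, with summed levels of 628 to 3553 CPM at 6m and 380 to 1491 CPM at 28m. Of 10 macrophage markers only Cd163 was called, as lower. The macrophage sum was 64.2 to 215 CPM at 6m and 82.4 to 630 CPM at 28m, and the 630 CPM were those of 28m mouse 7, which had the highest Nfkbia, Nfkbie and Bcl3 of its group. That library also had the lowest length trend of the group (-0.43 per doubling) and its highest neutrophil (20.1 CPM) and adipocyte (480 CPM) sums.

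Of 7 lymphocyte markers none passed the filter on low counts, and they summed to at most 2.64 CPM in the second run. Neutrophil markers, of which 4 of 5 were in the table and 3 were tested, gave no call and summed to at most 20.1 CPM. Of 5 adipocyte markers, Fabp4 was called higher, and the sum was 154 to 166 CPM at 6m and 142 to 480 CPM at 28m. Of 5 erythroid markers, 3 were in the table, Hba-a1 and Hba-a2 were at 0 in both groups, and Alas2 was tested and not called. Of the 10 fast fibre markers, 4 (Tnnt3, Tnni2, Mylpf and Pvalb) were called higher at 28m and 1, Myh4, lower. The part of these markers in the changes of the members was not tested.

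Between 6m and 24m no member passed the test, and 0.084% of the 13103 genes tested did. At an unadjusted p under 0.05, 5 members were higher (Nfkb2, Relb, Nfkbia, Nfkbie and Bcl3), beside 7.82% of all genes, and no member was lower. The count of members under 0.05 was 2 with limma-voom, without 24m mouse 2 or without 6m mouse 5. It was 3 with the length trend removed, and 6 without the first-run libraries of 24m mouse 4 and 6m mouse 4. The median log2 fold change of the members was 0.65 and that of all genes 0.028. DESeq2 called Nfkb2 and Relb higher (adjusted p = 0.00125 and 0.0385), as it did 1.11% of the genes it tested. With the mouse as a block over all 29 libraries, limma-voom called both as well (adjusted p = 0.0162 and 0.0422), among 42 of the 13455 genes it tested.

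**Figure D3:**
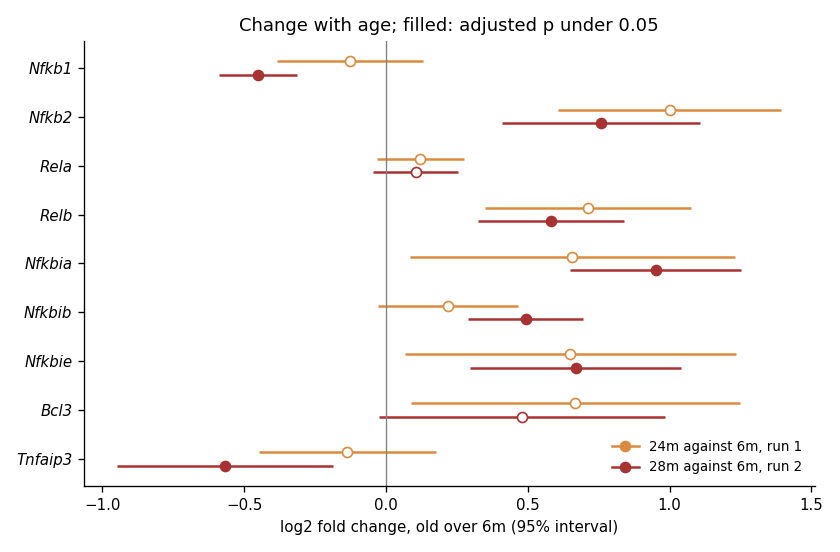
Log2 fold change of each gene with its 95% interval (horizontal axis), 24m against 6m in the first run and 28m against 6m in the second, filled where the adjusted p of edgeR's quasi-likelihood test was under 0.05. No 24m point is filled, and the 28m points run from Tnfaip3 at -0.57 to Nfkbia at 0.95.

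Within the first run, the alternative pair had no overlap between 6m and 24m. Nfkb2 had 11.6, 14.8 and 19.4 CPM at 6m in the first run (lowest, median, highest) and 21.2, 23.7 and 50.3 CPM at 24m. Relb had 6.91, 10.2 and 12.5 CPM at 6m and 12.8, 14.4 and 24.3 CPM at 24m. For both genes all 7 of the 24m mice lay above all first-run libraries at 6m, which held for 0.359% of the genes tested. The second library of 6m mouse 3 had 13.7 CPM of Relb, above 24m mice 2 and 6 at 12.8 and 13.3 CPM. For Nfkb2 the second 6m libraries reached 18.5 CPM, below all at 24m. The log2 fold changes were 1.0 (SE 0.20) and 0.71 (SE 0.18) with adjusted p = 0.0815 and 0.189 by edgeR's quasi-likelihood test. The highest values of both genes came from mice 4 and 7, with 38.2 and 50.3 CPM of Nfkb2 and 24.3 CPM of Relb in each. Without these mice the changes were 0.69 and 0.44, and neither passed (adjusted p = 0.0782 and 0.325, edgeR).

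Nfkbia at 24m rested on mouse 4. The 24m values were 20.9, 28.9 and 102 CPM (lowest, median, highest), against 20.4, 24.4 and 31.5 CPM at 6m, and the next highest 24m mouse had 38.5 CPM. The log2 fold change was 0.66 (adjusted p = 0.411) with this mouse and 0.22 without it, by edgeR, and neither passed. The same library had the lowest Nfkb1 of the study, 17.8 CPM, the highest Nfkbib at 24m, 49.8 CPM, the lowest endothelial sum, 210 CPM, and the highest adipocyte sum, 512 CPM. In 24m mouse 2 the macrophage sum was 571 CPM, and Nfkbie and Bcl3 had their highest 24m values there, 2.86 and 3.12 CPM. In 24m mouse 7, with a macrophage sum of 306 CPM, they had 2.49 and 2.75 CPM. Mouse 4 had the next highest macrophage sum, 270 CPM, and the lowest Nfkbie and Bcl3 of the group, 0.734 and 1.01 CPM.

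Nfkbie and Bcl3 had log2 fold changes of 0.65 (SE 0.30) and 0.67 (SE 0.30) at 24m, without a call (adjusted p = 0.417 and 0.411, edgeR's quasi-likelihood test). All 10 macrophage markers had a positive log2 fold change at 24m, with a median of 0.90, and none was called. Rela (0.12), Nfkbib (0.22), Nfkb1 (-0.13) and Tnfaip3 (-0.14) had 95% intervals that included 0. Without 24m mouse 4, Nfkbib was at 0.12, Nfkb1 at -0.036 and Tnfaip3 at -0.073. Over the 12 alternatives other than single libraries left out, Nfkb1 was between -0.26 and -0.053 and Nfkbie between 0.55 and 1.01. Neither was called in any of them. Of the 7 mice at 24m, 1 lay below all at 6m for Nfkb1, and that was mouse 4.

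The changes at 28m and at 24m have separate 6m libraries but the same 6m mice. No member had a difference of the 2 changes that passed the test, and neither did any other gene of the 13455 tested by edgeR. At an unadjusted p under 0.05 there was 1 member, Nfkb1 (difference -0.31, adjusted p = 0.399, edgeR), beside 7.31% of all genes with a lower change at 28m. With the length trend removed this difference was -0.086 and that of Nfkbia 0.19, and no member was under 0.05 unadjusted, while limma-voom with the mouse as a block called none and had 3 under it (Nfkb1, Nfkbib and Tnfaip3), beside 21.3% of all genes. DESeq2 called no member and 2 genes in all. Intervals were wide: for Nfkb2 the difference was -0.23 (95% interval -0.76 to 0.30), for Relb -0.12 (-0.57 to 0.33) and for Nfkbia 0.31 (-0.37 to 0.98). They also moved with single libraries, to -0.042 for Nfkb2 and -0.00071 for Relb without 24m mouse 7, and to 0.19 for Nfkbia without 24m mouse 5. Without 24m mouse 4 the differences of Nfkb1 (-0.39) and Nfkbia (0.76) passed, both with adjusted p = 0.0389 by edgeR, as did 1657 genes in all. They passed under none of the other alternatives run. Without the first-run libraries of 24m mouse 4 and 6m mouse 4, the differences were -0.34 and 0.69 (adjusted p = 0.0773 for each, edgeR). No gene was called by edgeR in that fit, which kept the second library of 6m mouse 4.

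The 6m mice, each sequenced from 2 libraries, give the spread between preparations and runs. Between the runs edgeR's quasi-likelihood test called no member, with or without the mouse as a block, and DESeq2 called none. Unadjusted, no member was under 0.05 without the block, beside 2.77% of all genes, and 1, Nfkbie (log2 difference -0.37), with it, beside 8.17%. The SD of the log2 difference between the libraries of a mouse was 0.036 for Rela and 0.072 for Nfkb2, and the log2 spread between mice was 0.036 and 0.27. For Nfkb2 the mice thus differed by more than their preparations did. For Nfkbie and Bcl3 the SDs between libraries were 0.36 and 0.38, near the spread between mice of 0.32 and 0.46. For 7 members, all but Nfkb2 and Nfkbie, mouse 4 gave the largest difference between libraries, and its first library had 23.9 CPM of Nfkb1 where the second had 34.3 CPM. Without this mouse the SDs for Nfkb1 and Nfkbia fell from 0.18 and 0.17 to 0.054 and 0.077.

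Genes whose level went with that of a member over the 22 mice were ranked by Pearson's r of the differences from the group means, over 13454 genes. Closest to Nfkb1 were Mlxip (r = 0.96), Stard13 (0.95) and Trappc8 (0.94), and closest to Nfkbia were Usf1 (0.96), 2410004N09Rik (0.95) and Tmem50a (0.95). Closest to Nfkbib were 2210411K11Rik (0.91), Adrm1 (0.91) and Eif4ebp1 (0.89). For Rela they were BC037034 (0.86), Me2 (0.85) and Rad50 (0.84). For Nfkb2 they were Pop1 (0.81), the overlapping Psd (0.79) and Lpin2 (0.79), and for Relb Odc1 (0.79), Cd82 (0.77) and Anxa7 (0.75). For Nfkbie they were Pltp (0.85), Csgalnact1 (0.84) and Slfn8 (0.83), for Bcl3 Litaf (0.83), Rhog (0.82) and Pfkp (0.80), and for Tnfaip3 Ppp1r16b (0.84), Plxnb1 (0.80) and Iqce (0.77). All are the highest of many values over the same mice, depths and library trends.

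Among the members, the 36 pairs had r between -0.86 and 0.73 with a median of 0.015. The alternative pair Nfkb2 and Relb had r of 0.73 (rho 0.77), 0.73 without the 2 mice most distant in Nfkb2, and 0.81 with the length trend removed. Nfkb2 and Rela had r of 0.69, and 0.74 with the trend removed. Nfkb1 and Nfkbia ran opposite, with r of -0.86, and had r of -0.23 once the trend was removed. Nfkbie and Bcl3 had r of 0.60, and 0.56 with the trend removed.

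The rest of the pathway was followed with 111 genes in lists by role, of which 89 were tested. At 28m, 16 were called higher and 22 lower, beside the 24.3% and 22.9% of all genes, and their median log2 fold change was 0.0069. With the length trend removed, 15 were higher and 11 lower, beside 17.4% and 12.5% of all genes. Against the first libraries of the 6m mice they were 13 and 12, beside 12% of all genes called higher and 11% lower there, and 14 of the 38 calls were lost. At 24m none was called by edgeR's quasi-likelihood test, and DESeq2 called 6, all higher, as it did 1.11% of the genes it tested.

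Of the other subunit and the nuclear inhibitors, 3 genes with 2 tested, Rel fell. It encodes c-Rel, the subunit best known from lymphocytes, and had 2.86 ± 0.357 CPM at 6m (SD, n = 7) and 1.20 ± 0.549 CPM at 28m (n = 8). Its log2 fold change was -1.28 (SE 0.24, adjusted p = 0.000972, edgeR's quasi-likelihood test) and -0.87 (adjusted p = 0.00234) with the trend removed. The ligands were scarce: 4 of 12 were tested and none was called, and Tnf itself, at 0.117 ± 0.0731 and 0.303 ± 0.178 CPM, was below the filter. Of 19 receptor genes 15 were tested. Tlr2, a sensor of bacterial lipoproteins, rose (log2 fold change 0.84), while Il1r1 (-1.10), the receptor for interleukin 1, its partner Il1rap (-0.46) and Tlr3 (-0.46) fell. With the trend removed Tlr2 (0.90) and Il1r1 (-0.72) were still called, and Il1rap (-0.28) and Tlr3 (-0.29) were not. Il1rap was not called against the first 6m libraries either (-0.39, adjusted p = 0.0625, edgeR).

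All 15 adaptors and ubiquitin ligases were tested, 6 rose and 5 fell, beside 24.3% and 22.9% of all genes. Higher were Traf1 (log2 fold change 0.95), the Toll-like receptor adaptor Myd88 (0.49), the TNF receptor adaptor Tradd (0.48), Birc3 (0.33), and Rbck1 (0.25) and Sharpin (0.24) of the linear ubiquitin ligase. Lower were Traf3 (-0.75), which restrains the alternative pathway, Traf5 (-0.70), Traf6 (-0.59), Tirap (-0.27, but 0.011 with the trend removed) and Rnf31 (-0.23), the catalytic part of the linear ubiquitin ligase. With the trend removed 4 were higher and 1, Traf5 (-0.85), was lower. Traf3 was then at -0.24 (adjusted p = 0.0959, edgeR), Traf6 at -0.21, Tradd at 0.24, Sharpin at 0.026 and Rnf31 at -0.061, all without a call, and Myd88 at 0.32 was still called. With the mouse as a block over all 29 libraries, limma-voom did not call Traf1 (0.96, adjusted p = 0.115), Traf5 (-0.68, adjusted p = 0.116), Sharpin (0.27, adjusted p = 0.0804) or Tirap (-0.24, adjusted p = 0.0596). Against the first 6m libraries 8 of the 11 were not called by edgeR, namely Traf1 (0.58), Tradd (0.25), Birc3 (0.23), Traf3 (-0.57), Traf5 (-0.63), Traf6 (-0.48), Tirap (-0.19) and Rnf31 (-0.21), with adjusted p between 0.0519 and 0.217.

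Of 14 kinase genes none rose and 4 fell, beside 24.3% and 22.9% of all genes. The I-kappaB kinase subunits Chuk (log2 fold change 0.11), Ikbkb (-0.16, and -0.011 with the trend removed) and Ikbkg (-0.18) were not called. Lower were Tab2 (-0.78), Map3k14 (-0.52), which encodes the NF-kappaB-inducing kinase of the alternative pathway, Map3k7 (-0.50), the kinase TAK1, and Tab3 (-0.44). Of these only Tab2 was called with the trend removed (-0.52), with Map3k14 at -0.25, Map3k7 at -0.16 and Tab3 at -0.080, and Ikbkg was then called higher (0.26), the other direction. The call of Map3k14 was also lost with the mouse as a block (-0.48, adjusted p = 0.0917, limma-voom), and those of Map3k14 (-0.31) and Tab3 (-0.39) against the first 6m libraries.

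Among 11 tested negative regulators 2 rose and 3 fell, beside 24.3% and 22.9% of all genes. Tnip2, a partner of A20, had a log2 fold change of 0.56 and Fam105b, the linear-chain deubiquitinase OTULIN, of 0.54. N4bp1 (-0.74), Itch (-0.49) and Otud7b (-0.35) were lower, and Otud7b had 0.24 with the trend removed, the other direction and without a call, and -0.26 against the first 6m libraries, also without a call. N4bp1 (-0.24), Itch (-0.22), Fam105b (0.22) and Tnip2 (0.41) were smaller in that fit and still called, and the deubiquitinase Cyld, at -0.072 without a call before, was called higher (0.40).

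Of 36 known target genes 28 were tested, 7 rose and 6 fell, beside 24.3% and 22.9% of all genes. Cxcl10, a chemokine for T cells, rose from 0.446 ± 0.246 to 2.75 ± 1.07 CPM (SD) with a log2 fold change of 2.58 (SE 0.35, adjusted p = 0.000232, edgeR's quasi-likelihood test), and all 8 of the 28m mice lay above those at 6m. Ier3, an early stress response gene, rose by 1.22 and the ferritin heavy chain gene Fth1 by 0.68, again in all 8 mice. Such a separation held for 6.21% of all genes tested. Lcn2 (log2 fold change 3.68) exceeded the 6m mice in 2 of the 8, and limma-voom did not call it, with or without the mouse as a block (lowest value over the alternatives 1.85). Ccl2 (2.03) exceeded them in 4 of the 8, and was not called by DESeq2, by limma-voom with or without the block, or with the trend removed (1.17). Without 28m mouse 7 it was 0.63 and not called, the lowest value over the alternatives. Myc (0.95) and the survival gene Bcl2l1 (0.51) were also higher. Lower were Mmp9 (-1.23), complement C3 (-1.14), Nos2 (-0.68), Xiap (-0.65), Csf1 (-0.39) and Sod2 (-0.29, but 0.074 with the trend removed). With the trend removed 6 were higher and 5 lower, without Ccl2, Myc (0.64), Csf1 (-0.100) and Sod2 and with F3 (-0.55, from -0.29) and Cflar (0.31), which had been at -0.15 without a call, the other direction. Ier3 (0.78), Fth1 (0.35), Xiap (-0.25) and C3 (-0.70) were smaller in that fit by over 1.5 times and still called. With the mouse as a block over all 29 libraries, limma-voom did not call Csf1 (-0.37, adjusted p = 0.0788) or Sod2 (-0.27, adjusted p = 0.0524). Neither was called by edgeR with all 29 libraries in one fit without the block. Csf1 (-0.31) and Nos2 (-0.57, adjusted p = 0.0512, edgeR) were not called against the first 6m libraries.

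**Figure D4:**
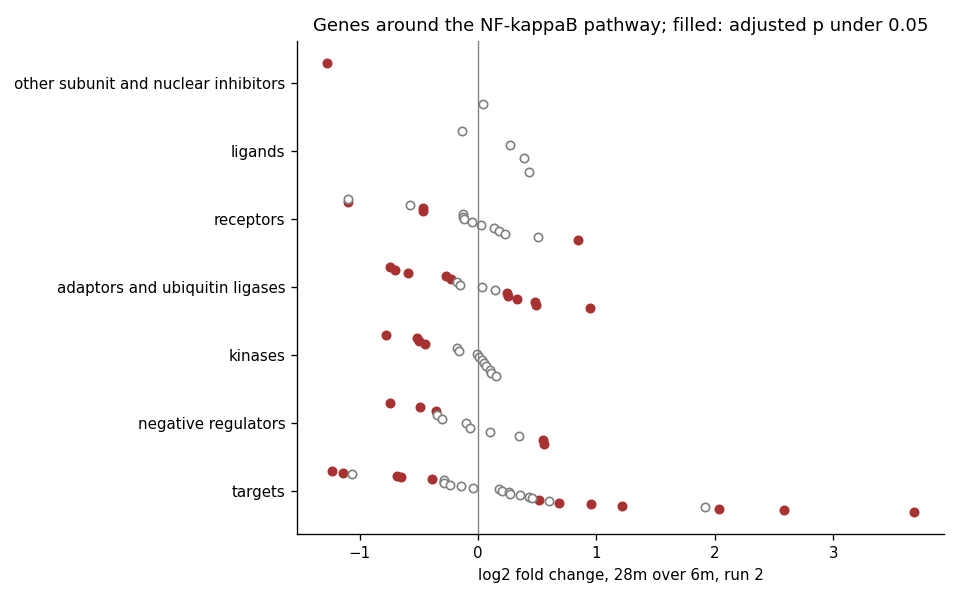
Log2 fold change, 28m over 6m in the second run (horizontal axis), of the tested genes of each list, 1 point a gene, filled where the adjusted p was under 0.05. No kinase point is filled to the right of 0, and the largest values, Lcn2 at 3.68 and Cxcl10 at 2.58, are among the targets.

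Glucocorticoids raise Nfkbia in many tissues, so a list of 13 glucocorticoid-induced genes was read beside it. At 28m, 6 of the 13 were higher, beside 24.3% of all genes, and 1, Zbtb16 (log2 fold change -1.09), was lower. The largest rises were those of the metallothionein genes Mt2 (1.99) and Mt1 (1.40), of Ddit4 (1.09), Cebpd (1.08) and Cebpb (1.05). Once the length trend was removed 5 were higher, beside 17.4% of all genes, and 1, Zbtb16 (-0.75), was still lower, beside 12.5%. Mt1 (0.86), Mt2 (1.44) and Tsc22d3 (0.15) were then not called while Per1 (0.82) and Klf9 (0.45) were. Cebpd and Tsc22d3 were not called against the first 6m libraries, Cebpd not without 28m mouse 2, and Tsc22d3 not with the mouse as a block (0.39, adjusted p = 0.0692, limma-voom). Fkbp5, a widely used marker of the response, had 47.6 ± 25.8 and 46.9 ± 24.3 CPM (log2 fold change -0.048, adjusted p = 0.919, edgeR, and 0.16 with the trend removed, also without a call). Their part in the Nfkbia rise was not tested.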

How the data were processed

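The members and the gene lists were chosen with earlier results of these data known. The authors aligned 75-base single-end NextSeq 550 reads of NEBNext Ultra II libraries to mm10 with STAR 2.5.4b and deposited its gene counts as whole numbers without normalization, and the submitters' processing notes also name bcl2fastq 2.20 and DESeq2 1.22.2. Which strand setting was used is not given in the sources used here. Columns were matched to samples by title, with 0 left over. Low genes were dropped by filterByExpr of edgeR 4.0.16 (R 4.3.3) and libraries scaled by TMM. Old mice were tested against the 6m libraries of their run with edgeR's quasi-likelihood test at 0.05, adjusted by Benjamini-Hochberg across every gene tested. A fit of all 29 libraries tested the difference of the age changes. Log2 CPM used a prior count of 2, and CPM was scaled over all libraries. Second 6m libraries were assigned to mice by the repeat mark in the titles, and the correlation across genes of the deviations of a mouse's libraries was between 0.218 and 0.814. Alternatives were DESeq2 1.42.0, limma-voom (limma 3.58.1), other scalings and filters, the mouse as a block (consensus correlation 0.735), a spline trend of each library with transcript length and GC content removed as an offset, and each library left out. Transcript lengths and positions came from GENCODE, with 379 symbols unmatched. The edgeR test was checked on simulated data. Depth was 17633475 to 33499162 counts per library, and the members had 12 (Nfkbie) to 2928 (Nfkbia) counts in a library. Named genes were all members, the called genes of each list up to 5 in each direction by absolute log2 fold change, and the 3 genes of highest r with each member. Genes named outside this rule, the 3 kinase subunits, Tnf, Fkbp5, Psd, Cyld, Ikbkg, Cflar, F3, Csf1 and Sod2 among them, were chosen after their values were seen.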

Additional observations from a re-analysis of the deposited data

Results flagged for a closer look

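In 36 combinations of 9 genes and 4 groups of libraries, 6 had a highest or lowest library set apart from the rest of its group by Dixon's criterion on log2 CPM, where chance alone gives about 1 in 20. The 24m mouse 4 gave 3 of them. It had 17.8 CPM of Nfkb1 with the next lowest 24m mouse at 28.3 CPM, 102 CPM of Nfkbia with the next highest at 38.5 CPM, and 49.8 CPM of Nfkbib with the next highest at 34.5 CPM. The first library of 6m mouse 4 had 23.9 CPM of Nfkb1, below the next lowest of 30.2 CPM. Both libraries had a negative length trend (-0.53 and -0.24 per doubling), and the cause was not tested. In the second 6m run, mouse 1 had 31.2 CPM of Nfkb1 (next lowest 33.4 CPM) and mouse 6 had 20.6 CPM of Nfkbia (next lowest 23.1 CPM), in groups whose SDs were 1.20 and 1.28 CPM.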

How the results depend on the processing

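At 28m, 5 to 7 members were called over the 10 other settings and 6 to 7 with each library left out, and Nfkb1, Nfkb2, Relb, Nfkbia and Nfkbib were called under all of them. The exceptions were Nfkbie (2 settings) and Tnfaip3 (2 settings and 1 library), lost as stated above, and Rela, gained with the length trend removed. The 28m calls over all genes went from 6140 to 2981 against the first 6m libraries and 3859 with the trend removed, where 58.1% rather than 51.4% were higher. Pathway genes called fell from 38 to 25 against the first 6m libraries. Calls of Tirap, Traf1, Rnf31, Sharpin, Map3k14, Ccl2 and Csf1 held in 5 to 13 of the 15 fits with a library left out (Sharpin was lost without 6m mice 2 or 3 of the second run, Cebpd without 28m mouse 2, Ccl2 without 28m mouse 7 among others), Tsc22d3 in 5, and the other called pathway genes in all 15.

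At 24m, members called went from 0 to 2 with DESeq2, with all 29 libraries in one fit and with the mouse block, and to 1 against the second 6m libraries, and were 0 to 0 with each library left out. All genes called there went from 11 to 215, 152, 42 and 46 in these settings, to 4 with at least 10 counts in every library and 17 with the trend removed. They were 5, 4 and 4 without 6m mouse 2, 5 or 6, and 30 without 24m mouse 4. Without the first-run libraries of both 24m mouse 4 and 6m mouse 4 they were 121. That alternative was chosen after seeing the data, as were leaving out 24m mice 4 and 7 and the trend removal for the difference. Pathway genes called went from 0 to 6, 5 and 1 with DESeq2, all libraries and the second 6m libraries. They went to 1 without the first-run libraries of both mice 4.

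Members with a called difference of the age changes were 0 to 2 with each library left out, 2 without 24m mouse 4, when 6 pathway genes were also called. The fit with the mouse as a block changed no call of a member beyond those named. Of the 45 listed genes called at 28m, 10, named above, were not called in it. This limma-voom fit of all 29 libraries also differs from the main fit in method and libraries. Without the block, Tirap, Traf5, Map3k14, Csf1, Sod2 and Tsc22d3 were also lost with all 29 libraries in one fit. Ccl2 and Lcn2 were also lost with limma-voom without the block. Signs of members turned in the cases that follow. The difference for Rela was -0.0013, and 0.00027 with DESeq2's size factors and 0.021 with the trend removed. It was 0.020 without the first-run libraries of both mice 4 and -0.048 to 0.037 with each library left out. For Nfkbie it was 0.040, -0.046 without the first-run libraries of both mice 4, and -0.085 to 0.24 with each library left out. Between the 6m runs, leaving out each mouse gave -0.055 to 0.046 for Relb, -0.0032 to 0.17 for Bcl3 and -0.0028 to 0.077 for Nfkbib. The cause was not tested. Depth limits Nfkbie and Bcl3 most.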
